A study of Mus musculus with 4 samples.

Results

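The genes described here belong to the Slc25 family, the carriers that move nucleotides, phosphate, organic acids, amino acids and cofactors across the inner mitochondrial membrane. They were taken as the genes whose annotated symbol is Slc25a followed by a number. Slc25a20, the carnitine carrier, was set apart. Of 22180 genes with an array cluster of a single symbol, 45 were members, and each was read by 1 cluster. Of these, 35 lay above the level filter, which kept 13258 genes in all and corresponds to an intensity of 5.81. The other 10 members lay between 3.20 and 6.18 on all arrays and are treated as too dim to compare. They are Slc25a2, Slc25a13, Slc25a14, Slc25a18, Slc25a21, Slc25a31, Slc25a41, Slc25a43, Slc25a53 and Slc25a54.

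The tissue was gastrocnemius, a fast-fibred calf muscle of the mouse, and each of 4 groups was read on 1 Affymetrix array. The groups were wild type (WT) with vehicle, WT with streptozotocin (STZ), and mice with KLF15 knocked out only in skeletal muscle (KO), again with vehicle or with STZ. STZ kills pancreatic beta cells and so lowers insulin. It was given into the peritoneum at 50 mg/kg for 5 days in a row in 50 mM citrate of pH 4.5, the vehicle mice got citrate alone, and muscle was taken at 3 weeks. The promoter that drives the muscle deletion, the age and sex of the mice, and whether RNA of several animals was pooled are not stated in the labels used here. KLF15, a Kruppel-like zinc finger factor, is known in muscle for its control of amino acid and lipid use.

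Carriers of this family share a fold built of repeats and mostly work as exchangers, so that the entry of one solute is coupled to the exit of another. In muscle the adenine nucleotide and phosphate carriers feed ATP synthesis, and the aspartate/glutamate and oxoglutarate carriers run the malate-aspartate shuttle, which brings reducing power from glycolysis into mitochondria. Others supply the matrix with coenzyme A, NAD, iron, folate and glutathione, or bring in branched-chain amino acids for breakdown.

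Array medians lay between 5.73 and 5.96, and correlations of log2 values between arrays over all clusters between 0.987 and 0.991. Klf15 itself read 50.5 without and 72.1 with STZ in WT, and 19.8 without and 16.04 with STZ in KO. It was lower on each KO array than on each WT array. Fibre markers were bright on all arrays, with a summed intensity of 38983 to 40361 over 8 genes. Since there was 1 array per group, no spread between animals is known, and no difference below was tested. Differences are given as log2(intensity + 3.69). A 1.5-fold difference, 0.585 on that scale, is used for counting. Where 4 intensities follow each other, their order is WT without STZ, WT with STZ, KO without STZ and KO with STZ. In whole muscle, fewer cells of a type and less RNA per cell cannot be told apart.

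Most carriers differed little between the 4 arrays. The distance from a member's lowest to its highest array had a median of 0.28, against 0.29 for all genes. It reached 1.5-fold in 4 of 35 members, Slc25a1, Slc25a17, Slc25a42 and Slc25a44, and in 8.02% of all genes past the filter. Of these 4, Slc25a17, Slc25a42 and Slc25a44 were highest in WT STZ and lowest in KO STZ, whereas Slc25a1 was highest in KO vehicle and lowest in WT STZ. The heat map of centred values shows every member past the filter on each array.

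**Figure D1:**
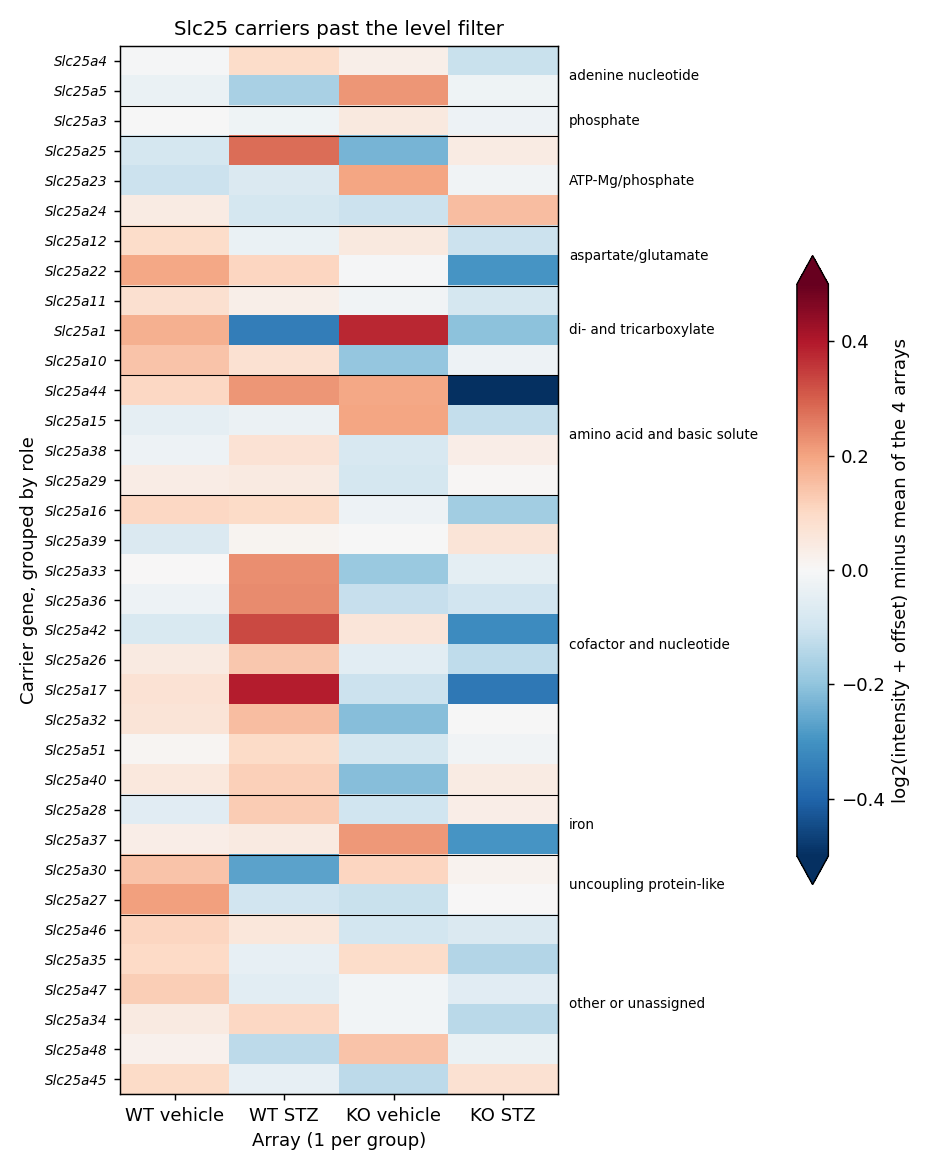
Each row is 1 of the 35 Slc25 carriers past the level filter, each column 1 array, and the colour is log2(intensity + 3.69) minus the mean of that gene over the 4 arrays. The darkest blue cell is Slc25a44 in KO STZ, and Slc25a17 and Slc25a42 are red in WT STZ and blue in KO STZ.

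Slc25a44 carries branched-chain amino acids into mitochondria. Its intensity was 54.1 without and 59.1 with STZ in WT, and 57.9 without and 33.9 with STZ in KO. The first 3 arrays lay close together and the KO STZ array stood alone below them, at 58.7% of KO vehicle and 57.4% of WT STZ. The log2 difference was -0.71 for STZ in KO and 0.12 for STZ in WT. Between genotypes it was -0.74 under STZ and 0.09 under vehicle. With the values quantile-normalized, the STZ difference in KO was -0.68 and the genotype difference under STZ was -0.64.

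Slc25a42 carries coenzyme A into the matrix. It read 49.8 without and 67.2 with STZ in WT, and 55.1 without and 41.6 with STZ in KO. Vehicle arrays of both genotypes were alike, and the STZ arrays lay on either side of them. The STZ difference was thus 0.41 in WT but -0.38 in KO. The KO STZ array stood at 61.9% of WT STZ, a log2 difference of -0.65 that shrank to -0.52 after quantile normalization, short of 1.5-fold.

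Slc25a17 carries cofactors such as coenzyme A and FAD across the peroxisomal membrane, and is thus a family member outside mitochondria. Its intensity was 34.1 without and 43.3 with STZ in WT, and 29.6 without and 24.3 with STZ in KO. Both KO arrays lay under both WT arrays. The genotype difference was -0.18 under vehicle and -0.75 under STZ, and KO STZ stood at 56.0% of WT STZ. The STZ difference was 0.32 in WT but -0.25 in KO.

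Slc25a1, the citrate carrier, exports the citrate from which the cytosol makes acetyl-CoA for fatty acid synthesis. It read 51.2 without and 34.4 with STZ in WT, and 59.3 without and 38.3 with STZ in KO. Both STZ arrays lay under both vehicle arrays. STZ stood at 67.3% of vehicle in WT and 64.7% in KO, with differences of -0.53 and -0.58. The linear ratio in KO was thus past 1.5-fold, while its value on the log2 scale with the offset was just short of it. The genotype differences were 0.20 under vehicle and 0.14 under STZ.

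**Figure D2:**
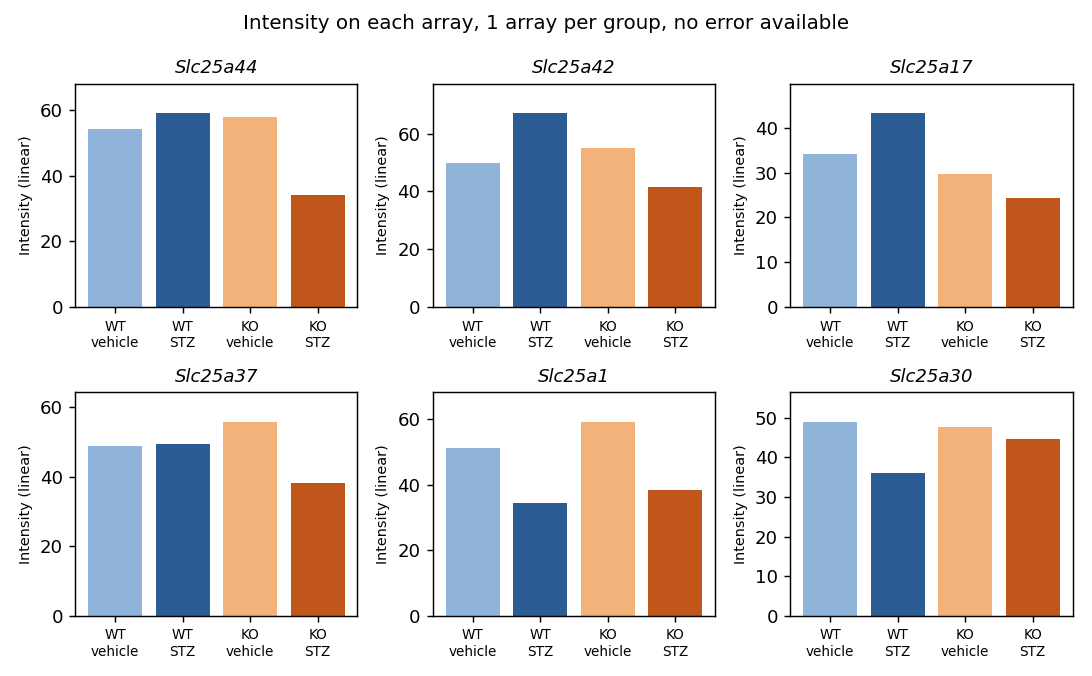
Bars give the linear intensity of 6 carriers on each of the 4 arrays, 1 array per group, with axes from 0 and no error available. Slc25a44 is low in the KO STZ bar alone, at 33.9 against 54.1 to 59.1 in the others, while Slc25a1 is lower in both STZ bars, at 34.4 and 38.3.

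The promoters of 3 of these 4 genes are shown because the genes differed most over the arrays. Slc25a44 was not matched in the promoter table. The sequences are the 250 bases before the RefSeq start site in GRCm38.p6, read on the gene's own strand. Capitals mark CACCC or its complement GGGTG, the box that Kruppel-like factors are known to bind, and GGGCGG or its complement CCGCCC, the GC box. The windows are chr8:70212282-70212531 for Slc25a42, chr15:81360766-81361015 for Slc25a17 and chr16:17928220-17928469 for Slc25a1, all on the minus strand.
Slc25a42: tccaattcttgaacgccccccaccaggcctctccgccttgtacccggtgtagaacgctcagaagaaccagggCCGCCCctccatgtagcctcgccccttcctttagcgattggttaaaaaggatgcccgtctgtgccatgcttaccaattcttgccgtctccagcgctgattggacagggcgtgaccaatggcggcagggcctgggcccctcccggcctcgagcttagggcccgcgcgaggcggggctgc
Slc25a17: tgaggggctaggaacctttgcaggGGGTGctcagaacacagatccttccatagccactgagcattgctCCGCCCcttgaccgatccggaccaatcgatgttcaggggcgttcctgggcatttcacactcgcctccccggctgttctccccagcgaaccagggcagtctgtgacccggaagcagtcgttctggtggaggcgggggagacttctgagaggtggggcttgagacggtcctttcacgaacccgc
Slc25a1: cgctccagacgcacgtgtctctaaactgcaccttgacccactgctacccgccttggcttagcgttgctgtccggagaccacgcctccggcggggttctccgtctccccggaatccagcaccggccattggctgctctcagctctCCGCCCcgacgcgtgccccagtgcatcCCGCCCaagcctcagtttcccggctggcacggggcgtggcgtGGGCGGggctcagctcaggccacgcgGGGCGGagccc
Slc25a17 held 1 CACCC box and 1 GC box, Slc25a42 held 0 and 1, and Slc25a1 held 0 and 4. No base belonged to both motifs in these windows. Promoters were matched for 35 members, not the same 35 as pass the level filter. In those, CACCC was found in 24 genes and GGGCGG in 24 genes, on either strand and in any of a gene's windows. Among all 27025 genes of the promoter table the shares were 54.5% and 35.4%. Also searched were CCAAT or its complement ATTGG, found in 18 of 35 members and 37.5% of all genes. A search for TCACNCCAC or its complement GTGGNGTGA found it in 1 of 35 members and 1.22% of all genes. TCACNCCAC holds a CACCC where its N is C. A match is a string of letters and says nothing of binding.

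Of the carriers that serve ATP synthesis, Slc25a3 and Slc25a4 differed little between arrays and Slc25a5 by more. Slc25a4, the heart and muscle form of the ADP/ATP carrier, read 2575 without and 2758 with STZ in WT, and 2637 without and 2391 with STZ in KO. Its KO STZ array was the lowest, at 86.7% of WT STZ, and the difference of -0.21 turned to 0.01 after quantile normalization. Slc25a5, the ADP/ATP carrier of many other cells, read 150.6, 137.5, 180.6 and 151.9 and was higher in KO under vehicle (0.26) and under STZ (0.14). Slc25a4 and Slc25a5 are close copies and a Slc25a5 pseudogene is listed in RefSeq, so shared probe signal is possible and was not tested. Slc25a3, the phosphate carrier, read 425.8 without and 420.0 with STZ in WT, and 440.8 and 418.7 in KO, and the arrays hardly differed.

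The carriers of the malate-aspartate shuttle, Slc25a12 and Slc25a11, also differed little between arrays. Slc25a12, the aspartate/glutamate carrier of muscle, read 1724 without and 1578 with STZ in WT, and 1674 without and 1501 with STZ in KO. STZ arrays were lower in both genotypes, by -0.13 in WT and -0.16 in KO. Slc25a11, the oxoglutarate carrier, read 827.7 and 797.7 in WT and 772.6 and 735.3 in KO, so that both KO arrays lay slightly under both WT arrays. Its genotype difference under STZ, -0.12, turned above 0 after quantile normalization and after loess. The enzymes of this and the glycerol phosphate shuttle had medians of -0.15 for STZ in WT and -0.16 in KO over 6 genes, with 4 and 5 of them below 0, against 48.3% and 57% of all genes. Slc25a22, a glutamate carrier, read 24.3, 22.7, 20.6 and 16.3. Both KO arrays lay under both WT arrays, with genotype differences of -0.20 under vehicle and -0.40 under STZ. Slc25a10, the dicarboxylate carrier, was dim at 13.0, 12.3, 9.56 and 11.2 and had the lowest genotype difference under vehicle of all members past the filter, -0.33.

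The cofactor and nucleotide carriers formed the largest role group, with 10 members past the filter. STZ in WT was below 0 in 1 of 10, against 48.3% of all genes, with a median of 0.09. The genotype difference was below 0 in 8 of 10 under vehicle, against 50.8% of all genes (median -0.11). Under STZ it was below 0 in 9 of 10, against 58.1% of all genes (median -0.26). These counts were the same after quantile normalization and after removal of a loess trend with level, where the STZ median shrank to -0.13 and -0.15. The median of all genes between genotypes under STZ was then 0.0089 and -0.0012. The shares of all genes above are those of the values as reported. Slc25a39 was the exception under STZ between genotypes, Slc25a39 and Slc25a42 were those under vehicle, and Slc25a16 was that for STZ in WT. Slc25a17 and Slc25a42, described above, were the only 2 of the group past 1.5-fold. Slc25a36, a pyrimidine nucleotide carrier, read 53.4 without and 64.7 with STZ in WT, and 50.0 without and 50.6 with STZ in KO, so that WT STZ stood apart from the other arrays. Slc25a32, known as a carrier of folate and flavin, read 26.9, 28.9, 21.5 and 25.5, and Slc25a40, a glutathione carrier, read 9.26, 9.86, 7.08 and 9.16. In both, the KO vehicle array was the lowest, with genotype differences under vehicle of -0.28 and -0.27. The members left in the group were Slc25a16 (linked to coenzyme A), Slc25a26 (S-adenosylmethionine), Slc25a33 (pyrimidine nucleotides), Slc25a39 (glutathione) and Slc25a51 (NAD). Their genotype differences under STZ lay between -0.28 in Slc25a33 and 0.05 in Slc25a39.

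Among the iron carriers, Slc25a37 (mitoferrin 1) read 48.8 without and 49.3 with STZ in WT, and 55.8 without and 38.1 with STZ in KO. KO STZ was again the lowest array, at 68.2% of KO vehicle, a difference of -0.51. Slc25a28 (mitoferrin 2) read 90.2, 102.9, 87.5 and 96.3, and STZ was above vehicle in WT (0.18) and in KO (0.13). The mitoferrins thus differed in the sign of the STZ difference in KO.

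Of the calcium-regulated ATP-Mg/phosphate carriers, Slc25a25 read 117.3 without and 152.6 with STZ in WT, and 105.7 without and 128.7 with STZ in KO. Both STZ arrays lay above both vehicle arrays, with differences of 0.37 in WT and 0.27 in KO. Slc25a23 read 61.5, 63.0, 76.9 and 65.6 and had the highest genotype difference under vehicle of all members past the filter, 0.31. Slc25a24 was dim, at 13.2, 11.8, 11.6 and 14.6, and the STZ difference was -0.13 in WT and 0.26 in KO.

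The 2 relatives of uncoupling proteins past the filter were lower with STZ than with vehicle in WT, also after quantile normalization and loess. Slc25a30 read 49.1 without and 36.0 with STZ in WT, and 47.7 without and 44.6 with STZ in KO. WT STZ stood apart below the other arrays, at 73.3% of WT vehicle, with STZ differences of -0.41 in WT and -0.09 in KO. Slc25a27 read 29.4, 23.2, 22.9 and 25.02, so that WT vehicle stood above the other arrays, and the STZ difference was -0.30 in WT and 0.11 in KO. Ucp3, the uncoupling protein of muscle, which belongs to the family but not by symbol, read 291.4, 301.6, 286.5 and 208.3. Its KO STZ array lay below the others, with a genotype difference under STZ of -0.53.

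Of the remaining amino acid carriers, Slc25a15, the ornithine carrier, read 44.5 without and 44.9 with STZ in WT, and 53.2 without and 42.0 with STZ in KO. KO vehicle was the highest, and STZ in KO differed by -0.32. Slc25a29, the basic amino acid carrier, was dim at 8.05, 8.11, 7.09 and 7.80. Slc25a38, the glycine carrier of haem synthesis, lay between 21.5 and 24.3 on all arrays.

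Other members have no settled substrate or act otherwise. Slc25a46, an outer membrane protein of mitochondrial dynamics, read 243.3 without and 234.5 with STZ in WT, and 211.5 and 214.1 in KO. Both KO arrays lay under both WT arrays, with genotype differences of -0.20 under vehicle and -0.13 under STZ. The difference under STZ did not keep its sign, as it ranged from -0.13 to 0.07 over the alternatives that bear on single genes. Slc25a45 was dim at 9.02, 7.89, 7.19 and 8.86, with STZ differences of -0.13 in WT and 0.21 in KO. Slc25a47, known from liver, read 19.5, 16.8, 17.4 and 16.8, so that WT vehicle was the highest, with an STZ difference of -0.18 in WT. Slc25a34, Slc25a35 and Slc25a48 stayed between 8.60 and 26.0, and their lowest and highest arrays lay at most 0.27 apart.

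In KO against WT under vehicle, 0 of 35 members were 1.5-fold higher (0.581% of all genes) and 0 were 1.5-fold lower (0.777%). Within 0.25 of 0 were 29 of 35 members (79.8%). The difference was below 0 in 24 of 35 members, against 50.8% of all genes, with a median of -0.09 against -0.0039. After quantile normalization and after loess 23 members were below 0, with medians of all genes of 0.0063 and 0.0014. Beside Slc25a23, Slc25a5, Slc25a15 and Slc25a1 were the farthest above 0, and beside Slc25a10, Slc25a27, Slc25a32 and Slc25a40 were the farthest below.

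In KO against WT under STZ, 3 of 35 members were 1.5-fold lower (2.81% of all genes) and 0 were higher (0.845%). The 3 were Slc25a17, Slc25a44 and Slc25a42, and 25 of 35 members were within 0.25 of 0 (69.4%). The nearest member short of the threshold was Slc25a22. In all, 26 of 35 members were below 0, against 58.1% of all genes, and the median was -0.10 against -0.05. Genes brighter than percentile 75 of level, which include 26 of the members, had a median of -0.11, and those 26 members one of -0.12. After quantile normalization 17 of 35 members were below 0 and after loess 18. The median of all genes was then 0.0089 and -0.0012. The lean of the family as a whole under STZ thus depends on the scaling, while Slc25a17 and Slc25a44 were past 1.5-fold in both settings.

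The comparisons of genotype under vehicle and under STZ share no array. Below 0 in both were 20 of 35 members, against 32.7% of all genes, and above 0 in both were 5 of 35, against 23.7%. The 5 were Slc25a1, Slc25a5, Slc25a23, Slc25a39 and Slc25a48, of which the last 2 are named after their values were seen. This list depends on the scaling. With quantile normalization Slc25a4 was above 0 in both as well, and so was Slc25a3, at 0.11 under vehicle and 0.18 under STZ. After quantile normalization the count below 0 in both was 14 of 35, against 26.1% of all genes, and after loess 14, against 28.0%. Among genes brighter than percentile 75 of level it was 14 of 26 members, against 40.8% of those genes.

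**Figure D3:**
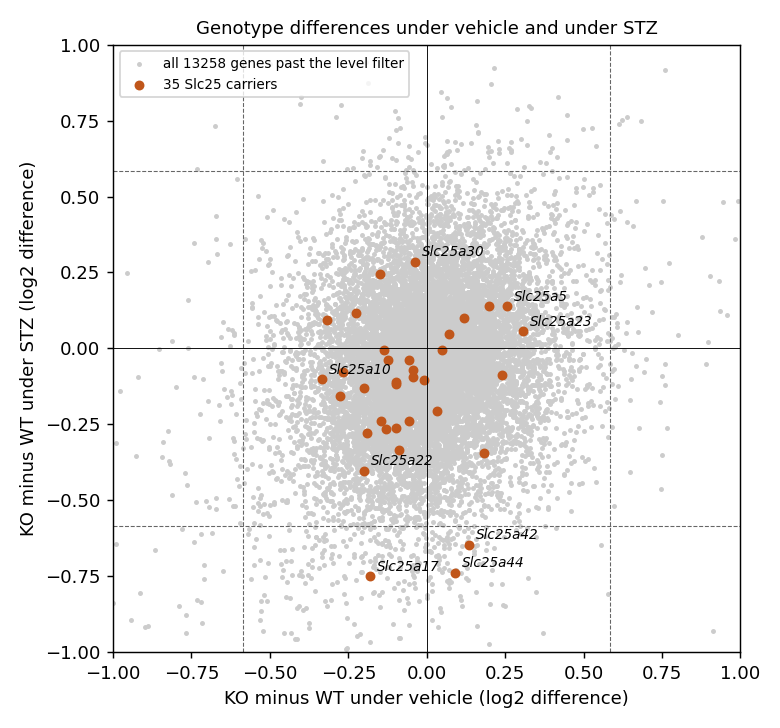
Each point is a gene past the level filter, with the log2 difference of KO minus WT under vehicle on the x axis and under STZ on the y axis. Grey points are all 13258 genes, orange points the 35 carriers, dashed lines mark 1.5-fold, and 54 genes lie outside the axes. Slc25a17, Slc25a42 and Slc25a44 lie below the lower dashed line and no carrier passes the other lines.

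In STZ against vehicle within WT, 0 of 35 members were 1.5-fold higher (1.27% of all genes) and 0 were lower (0.445%). The values spread from -0.53 in Slc25a1 to 0.41 in Slc25a42, with 16 members below 0 (48.3% of all genes), 28 within 0.25 of 0 (76.7%) and a median of 0.01. WT STZ was the highest of the 4 arrays for 15 of 35 members, against 32.2% of all genes. In STZ against vehicle within KO, 1 of 35 members was 1.5-fold lower (0.656%), Slc25a44, and 0 were higher (0.445%). The values spread from -0.71 to 0.27, with 20 members below 0 (57%), 25 within 0.25 of 0 (78%) and a median of -0.07. KO STZ was the lowest of the 4 arrays for 15 of 35 members, against 33.5% of all genes, and KO vehicle for 14, against 21.7%. WT STZ was the lowest for 4 (24.1%) and WT vehicle for 2 (20.6%). The highest array was WT vehicle for 11 (23.3%), KO vehicle for 7 (25.1%) and KO STZ for 2 (19.5%).

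Subtracting the WT from the KO value of the STZ difference gave a value at least 1.5-fold below 0 in 2 of 35 members (3.91% of all genes), Slc25a44 at -0.83 and Slc25a42 at -0.78, and 0 were as far above 0 (1.76%). Slc25a17 at -0.57 and Slc25a37 at -0.52 came next. The highest values were 0.41 in Slc25a27, 0.39 in Slc25a24, 0.34 in Slc25a45 and 0.32 in Slc25a30. In all, 24 of 35 members were below 0 (57.1%), but 14 after quantile normalization and 15 after loess, and 26 were within 0.25 of 0 (62.9%). The median of all genes moved too, from -0.05 to 0.0066 after quantile normalization and 0.0024 after loess. STZ differences had the same sign in both genotypes for 21 members, 10 above 0 (22.8% of all genes) and 11 below (28.3%). They were above 0 in WT and below 0 in KO for 9 (28.6%), and the other way round for 5 (19.9%).

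**Figure D4:**
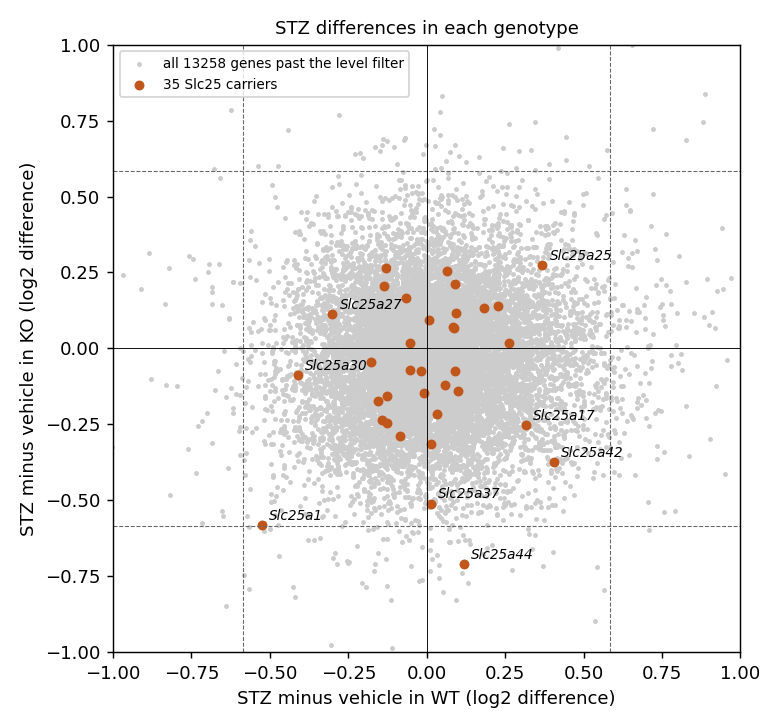
Each point is a gene past the level filter, with the log2 difference of STZ minus vehicle in WT on the x axis and in KO on the y axis. Grey points are all 13258 genes, orange points the 35 carriers, dashed lines mark 1.5-fold, and 26 genes lie outside the axes. Slc25a44 lies below the lower dashed line, Slc25a1 lies at lower left on both axes, and Slc25a42 lies at the right and below 0.

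Genes that work with the carriers gave the following values. Slc25a20, the carnitine carrier left out of the family here, read 138.1 without and 216.5 with STZ in WT, and 124.6 without and 133.4 with STZ in KO, so that WT STZ stood apart. A further list held 12 genes outside the symbol rule, among them pyruvate carrier (Mpc) and sideroflexin (Sfxn) genes, which belong to other families. Of these 12, 10 were matched and 8 passed the level filter. Of those 8 (Ucp3, Mtch1, Mtch2, Mpc1, Sfxn1, Sfxn2, Sfxn3 and Sfxn5), 0 were past 1.5-fold between genotypes under STZ. All 8 were below 0 there, against 58.1% of all genes, with a median of -0.24, and 7 of 8 after quantile normalization. Sfxn1, a serine carrier of the inner membrane, was 1.5-fold lower with STZ in KO, at -0.63. Of 13 genes of the machinery that imports carriers, 12 were below 0 in KO against WT under STZ, against 58.1% of all genes. The median was -0.27, and 9 were below 0 after quantile normalization. For STZ in WT, 2 of the 13 were below 0, against 48.3% of all genes, with a median of 0.14. The median was -0.08 for STZ in KO and 0.03 for KO against WT under vehicle. Tomm22, a receptor of the outer membrane, read 99.5, 156.8, 103.3 and 103.7, and the WT STZ array stood apart at 0.64 above WT vehicle. It was the only gene of the 13 past 1.5-fold in a comparison of arrays. Of 14 genes of mitochondrial content, such as Cs, Vdac1 and Sdha, 13 were below 0 in KO against WT under STZ, against 58.1% of all genes. Their median of -0.11 was that of all genes brighter than percentile 75. After quantile normalization 4 were below 0, and 0 passed 1.5-fold. For each of these lists the share of 58.1% is that of the values as reported. The median of all genes in KO against WT under STZ was 0.0089 after quantile normalization.

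Markers of other cell and fibre types also differed on the KO STZ array, where Slc25a44, Slc25a42 and Slc25a17 were lowest. Of 8 adipocyte markers listed, 7 were matched and 5 passed the filter. In STZ against vehicle within KO, 4 of 5 were below 0, against 57% of all genes, with a median of -0.58. Of the 5, 2 were 1.5-fold lower, against 0.656% of all genes. The summed intensity of the 7 lay between 5211 and 5383, nearly all of it from Car3, which muscle fibres also make. Without Car3, left out after its values were seen, it was 163.7 without and 173.1 with STZ in WT, and 199.5 without and 122.8 with STZ in KO. Adipoq, a defining marker, read 14.8, 17.5, 18.9 and 12.1, Ucp1 of brown fat lay below the filter on all arrays, and no marker was at 0. Slow fibre markers, all 6 past the filter, summed to 689.4, 775.0, 595.1 and 488.4. In KO against WT under STZ 6 of 6 were below 0, against 58.1% of all genes, with a median of -0.51. Of the 6, 2 were 1.5-fold lower, against 2.81% of all genes, Tnni1 at -1.32 and Tnnc1 at -1.04. The count below 0 was 5 of 6 after quantile normalization and after loess, with medians of -0.35 and -0.36. Under vehicle 4 of 6 were below 0, against 50.8% of all genes, with a median of -0.33. The part of adipocyte and slow fibre content in the values of Slc25a44, Slc25a42 and Slc25a17 was not tested. Endothelial markers summed to 604.6, 601.5, 728.0 and 672.0, macrophage markers to 240.6, 298.3, 260.5 and 309.9, and fibroblast markers to 2584, 2801, 3008 and 3039. Most of the fibroblast sum was Dcn, which lay between 1670 and 1972. Col1a1 and Col3a1, fibrillar collagen genes, were past 1.5-fold higher in KO under vehicle (0.76 and 0.64) and under STZ (0.92 and 0.76), and their part in the carriers' values was not tested. Of the markers of nerve, 2 of 4 were matched and summed to at most 11.5, and of 3 red cell markers 0 were matched.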

How the data were processed

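The deposited table holds linear intensity values made by the authors, 1 for each of 41345 transcript clusters on each of 4 Affymetrix arrays. Per the labels' protocols, 4 ug of total RNA was turned into biotin-labelled cRNA. The background correction and scaling are, like the summary method, not given in the sources used here. Array number limits the precision.

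Symbols came from GEO's platform annotation, in which 23521 clusters had 1 symbol, 1814 had several and 16010 were not listed here. A gene was read by its brightest cluster of a single symbol. Values were turned into log2(intensity + 3.69), the offset being percentile 25 of all values, and genes with a mean above the median of all clusters were kept. The offset understates differences of dim genes. No scaling was added, as array medians on the log2 scale differed by at most 0.035. These medians lie near the level filter and say little of bright genes. Genes brighter than percentile 75 had a median of -0.11 for KO against WT under STZ and -0.06 for STZ within KO. It was -0.01 for KO against WT under vehicle and 0.03 for STZ within WT. The values as reported keep this lean, and small differences of bright carriers on the KO STZ array are not separated from it. A single array per group allows no test, and counts past 1.5-fold stand beside those of all genes. The counting step was run on simulated arrays with 2-fold changes and little noise. That run says nothing of the spread between mice or of changes near 1.5-fold. Members, lists and thresholds were chosen with earlier results of these data known.

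Members named are those past 1.5-fold, the 4 farthest each way in each comparison, the 5 brightest, those of the adenine nucleotide, phosphate, aspartate/glutamate, tricarboxylate and iron groups, Slc25a44 and Slc25a29. Other members are given by range or in their role group, after their values were seen. Alternatives were quantile normalization, loess, offsets of 1 and 16, no level filter, a filter at percentile 75 and the mean of all clusters. Promoters are from RefSeq (GRCm38.p6). No coordinates of clusters are given because the arrays' build is not named. Python 3.11.15, pandas 2.3.3, numpy 2.4.6 and statsmodels 0.14.6 were used.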

Additional observations from a re-analysis of the deposited data

Results flagged for a closer look

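Slc25a44 and Slc25a42 stood out because their STZ differences had opposite signs in the genotypes and lay at least 1.5-fold apart. The STZ difference in KO minus that in WT was -0.83 for Slc25a44 and -0.78 for Slc25a42 on the log2 scale. With 1 array per group this difference between genotypes was not tested.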

How the results depend on the processing

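Under 7 alternatives, 0 members were counted 1.5-fold higher in any of the 5 comparisons, as with the values as reported, and 0 were 1.5-fold lower in KO against WT under vehicle or in STZ against vehicle within WT. The count of lower members in KO against WT under STZ, 3 as reported, was 1 (Slc25a44) with an offset of 16 and 2 (Slc25a17 and Slc25a44) after quantile normalization and after loess. The count for STZ within KO, 1 as reported, was 2 with an offset of 1, where Slc25a1 joined Slc25a44, and 0 with an offset of 16. For the difference of STZ effects it was 3 in place of 2 with an offset of 1, where Slc25a17 joined. The genotype difference of Slc25a44 under STZ ranged from -0.78 to -0.59 over the alternatives that bear on single genes, and that of Slc25a17 from -0.81 to -0.56. The median of the members in KO against WT ranged from -0.09 to -0.04 under vehicle and from -0.12 to 0.0079 under STZ. Each member has 1 cluster, so the mean of all clusters changed no member's own value. No paired analysis was possible because each group has 1 array and the labels give no replicate numbers. The offset moves dim members most, and the spread between mice is unknown.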

Other observations

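In the RefSeq gene order of GRCm38.p6, 4 pairs of members have no other protein-coding gene listed between them: Slc25a29 with Slc25a47 on chromosome 12, Slc25a41 with Slc25a23 on chromosome 17, Slc25a54 with Slc25a24 on chromosome 3 and Slc25a43 with Slc25a5 on chromosome X. In 3 of these pairs, 1 gene lay below the level filter while its neighbour did not. Slc25a41 lay between 3.20 and 4.31 beside Slc25a23, Slc25a54 between 3.81 and 4.62 beside Slc25a24, and Slc25a43 between 3.51 and 4.33 beside Slc25a5. In the pair on chromosome 12 both genes passed, and the highest log2 difference in size was -0.12 for Slc25a29 and -0.18 for Slc25a47 over the comparisons of 2 arrays.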
